A study of Oryza sativa with 12 samples.

Results

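The LHCB genes encode the chlorophyll a/b-binding proteins that form the light-harvesting antenna of photosystem II. The 8 genes described here were chosen by locus identifier from the rice annotation, and each was found in 1 of the 37672 merged loci of the authors' deposited table. LHCB1 is represented by Os09g0346500, Os01g0600900 and Os01g0720500, LHCB2 by Os03g0592500, LHCB3 by Os07g0562700, LHCB4 by Os07g0558400, LHCB5 by Os11g0242800 and LHCB6 by Os04g0457000. The RefSeq annotation gave antenna names at the matching place for 4 of them, CAB1R for Os09g0346500, CAB2R for Os01g0600900, RCABP89 for Os03g0592500 and RCABP69 for Os07g0562700. The class names of the other loci rest on the locus list alone.

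Antenna proteins bind chlorophyll a, chlorophyll b and carotenoids, absorb light and pass the excitation energy to the photosystem II core. LHCB1, LHCB2 and LHCB3 build the trimers of the major antenna, LHCII, which is among the most abundant proteins of leaf thylakoids. LHCB4, LHCB5 and LHCB6, also called CP29, CP26 and CP24, are monomeric minor antenna proteins that sit between the trimers and the core. All are encoded in the nucleus, made in the cytosol and imported into the chloroplast.

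The shoots (whole aerial parts) of Nipponbare rice plants were profiled by RNA sequencing in 12 samples, with 4 groups of 3 biological replicates each. Wild-type plants were taken at 5 days (WT-5d) and at 12 days (WT-12d), and OsC3'H1 knockouts of the T3 generation at 12 days, as line a (KO-a) and line b (KO-b). OsC3'H1 codes for the 3-hydroxylase of p-coumaroyl esters in lignin synthesis. All plants were started on agar with diluted Murashige and Skoog medium in sterile boxes, and on day 7 the wild-type controls were moved to a hypotonic solution made with tap water. No such move is described for the knockouts, so medium and genotype cannot be told apart at 12 days, and medium and age cannot be told apart between the wild types. Between the knockouts and WT-5d, genotype and age cannot be told apart. The sample titles and the source names give the letters of the lines in opposite ways. The titles were followed, and what is said of KO-a belongs to KO-b, and the reverse, if the source names are right. The labels do not say how the knockouts were made or how many transformants a line stands for.

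The table holds 1 FPKM value (fragments mapped per kilobase of transcript, relative to all mapped fragments) per group over its replicates, so no SD is given and sequencing depth is unknown. The error beside a ratio is the one implied by the deposited test, the log2 ratio divided by the Cuffdiff statistic, and an error for each group was solved from the 6 pairs. A gene was called where the deposited Cuffdiff q was under 0.05. Os05g0494000, taken here as OsC3'H1 from its locus identifier alone because RefSeq names did not bear it out, was listed at 65.7 and 53.1 FPKM in WT-5d and WT-12d and at 10.7 and 12.9 FPKM in KO-a and KO-b. Of markers of other tissues, the root silicon transporter genes LSI1 and LSI2 summed to 2.31 to 10.7 FPKM with LSI2 listed at 0 in all groups. The meristem genes OSH1 and OSH15 were listed at 0 in WT-5d and at 2.39 to 5.91 FPKM in the other groups, and the seed storage gene GLUA2, in a merged locus, at 2.41 to 3.22 FPKM. RBCS (Os12g0274700), the Rubisco small subunit that marks green leaf, was listed at 1452 FPKM or more in every group.

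Transcripts of all 8 LHCB genes were lower in both knockout lines than in either wild type, and 7 of 8 were also called lower in WT-12d than in WT-5d. Of all tested loci, 13.5% were called lower between the wild types, and 23.5% to 26.6% in the knockouts against either wild type. The 8 values summed to 7222 FPKM in WT-5d, 3383 in WT-12d, 557 in KO-a and 401 in KO-b. The summed level was thus 2.14 times lower at 12 days than at 5 days in wild type. It was 6.07 times lower in KO-a and 8.44 times lower in KO-b than in WT-12d. In whole aerial parts, fewer green cells and less RNA per green cell cannot be told apart.

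**Figure D1:**
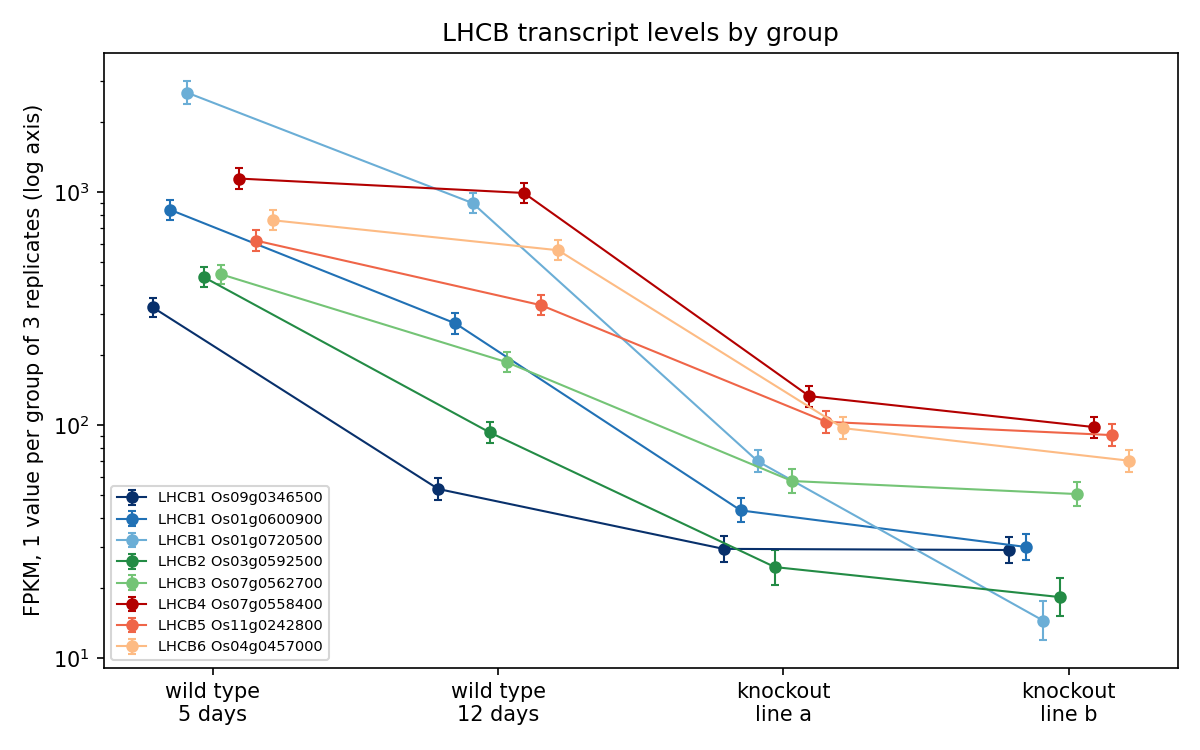
FPKM of the 8 LHCB genes on a log axis in the 4 groups, 1 point per gene and group with the group error implied by the Cuffdiff statistic, and lines joining the points of a gene. The knockout values lie between 14.5 and 133 FPKM, and the wild-type values between 53.1 and 2671 FPKM.

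Among the major antenna genes, Os01g0720500 of LHCB1 (IRGSP-1.0, chr1:30030998-30032054) had the largest range. It stood at 2671 FPKM in WT-5d, 897 in WT-12d, 69.8 in KO-a and 14.5 in KO-b. In WT-5d it ranked 14 by FPKM among the 37422 loci of at least 200 bases, and in KO-b it ranked 10030. Its level was highest of the 8 genes in WT-5d and lowest of the 8 in KO-b, where it did not differ from LHCB2 by more than 2 combined errors.

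Os01g0600900 (CAB2R, LHCB1, chr1:23607363-23608541) followed the same order of groups over a smaller range. It was listed at 840 FPKM in WT-5d, 273 in WT-12d, 43.0 in KO-a and 29.9 in KO-b. Os09g0346500 (CAB1R, LHCB1, chr9:10845779-10847012) was the lowest member in both wild types. Its values were 319, 53.1, 29.4 and 29.0 FPKM in the same order, so most of its range lay between the wild types and the lines were nearly level.

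LHCB2 (Os03g0592500, RCABP89, chr3:22000043-22014137) was listed at 430 FPKM in WT-5d, 92.9 in WT-12d, 24.5 in KO-a and 18.2 in KO-b. It was listed lowest of the 8 genes in KO-a, where it did not differ from CAB1R by more than 2 combined errors. LHCB3 (Os07g0562700, RCABP69, chr7:22487434-22488617), an LHCII trimer subunit of land plants, was listed at 443, 186, 57.4 and 50.5 FPKM. LHCB2 and LHCB3 did not differ by more than 2 combined errors in WT-5d, whereas LHCB3 was higher by 1.00 on the log2 scale (combined error 0.21) in WT-12d. The merged LHCB2 locus spans 14095 bases and overlaps 3 other loci, all listed at 0 FPKM in every group.

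By listed ratio the minor antenna genes differed less between the wild types than the major ones. LHCB5 (log2 ratio -0.92, implied error 0.20) lay close to LHCB3 (-1.25, error 0.20), so the difference was clearer for LHCB4 and LHCB6. LHCB4 (Os07g0558400, CP29, chr7:22316343-22317935) was listed at 1143 FPKM in WT-5d and 991 in WT-12d, against 133 in KO-a and 97.9 in KO-b. LHCB5 (Os11g0242800, CP26, chr11:7659701-7662180) was listed at 619, 327, 103 and 90.5 FPKM. LHCB6 (Os04g0457000, CP24, chr4:22835913-22837571), which joins outer trimers to the core in Arabidopsis, was listed at 757, 563, 96.9 and 70.3 FPKM. It overlaps 1 other locus, listed at 0.264 FPKM or less.

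The order of the members changed from group to group. In WT-5d Os01g0720500 stood above LHCB4 by 1.22 on the log2 scale (combined error 0.23). In WT-12d LHCB4 was listed first, within 2 combined errors of Os01g0720500 (0.14, combined error 0.21). In both knockouts the order began with LHCB4, LHCB5 and LHCB6, and neighbours among these did not differ by more than 2 combined errors. The highest member stood 8.36 times above the lowest in WT-5d, 18.7 times in WT-12d, 5.42 times in KO-a and 6.77 times in KO-b.

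As shares of the summed FPKM, the makeup of the pool moved from major towards minor antenna transcripts. The major antenna genes held 65.1% of the summed level in WT-5d, 44.4% in WT-12d, 40.2% in KO-a and 35.5% in KO-b. Os01g0720500 alone held 37.0%, 26.5%, 12.5% and 3.61% in the same order. LHCB5 went the other way, with 8.58%, 9.66%, 18.5% and 22.6%. Without Os01g0720500 the order of the major antenna share was different, at 44.6%, 24.3%, 31.7% and 33.1%, so its fall from WT-12d to the knockouts rests on that gene. These shares have no test, because the table holds 1 value per group.

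**Figure D2:**
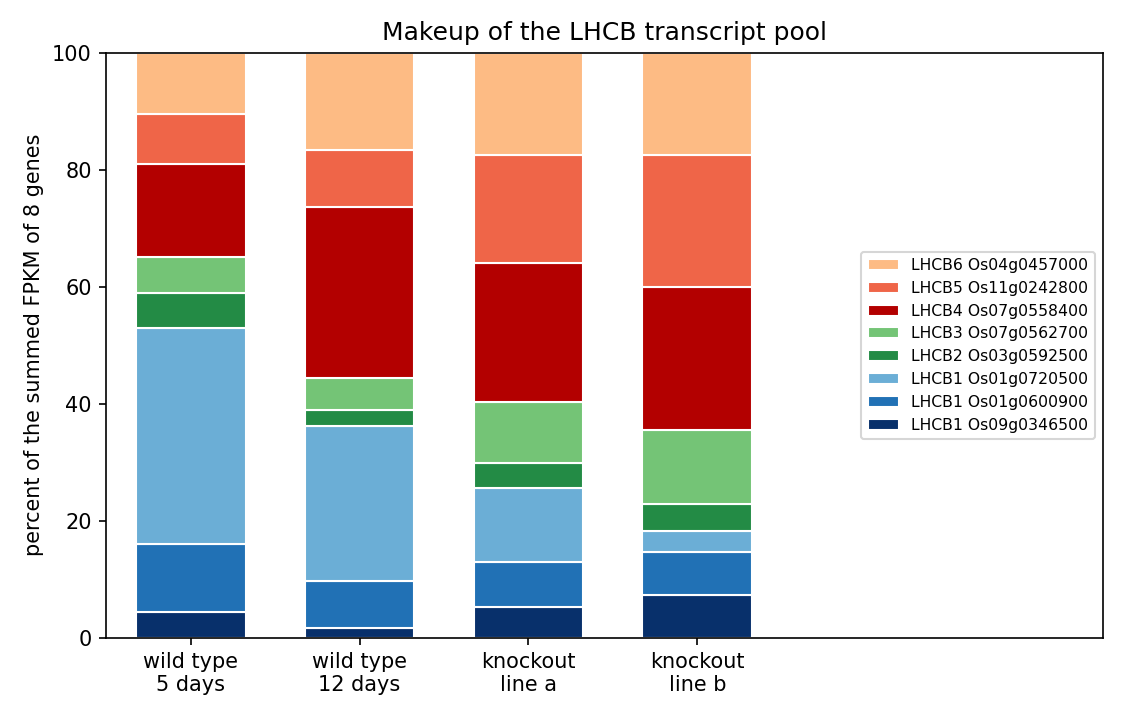
Percent of the summed FPKM of the 8 genes held by each gene, 1 stacked bar per group, with major antenna genes in blue and green and minor antenna genes in red and orange. The light blue segment of Os01g0720500 shrinks from 37.0% to 3.61%, and the LHCB5 segment grows from 8.58% to 22.6%.

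The comparison of the wild types asks what differed between 5-day plants and 12-day plants after the move to the solution. Major antenna transcripts were lower at 12 days for all 5 genes, with log2 ratios from -1.25 to -2.59. Os09g0346500 (CAB1R) fell 6.02-fold (log2 ratio -2.59, implied error 0.21), LHCB2 fell 4.63-fold (-2.21, error 0.21) and LHCB3 fell 2.38-fold (-1.25, error 0.20). Among minor antenna genes LHCB5 fell 1.90-fold (log2 ratio -0.92, implied error 0.20) and LHCB6 1.35-fold (-0.43, error 0.20). LHCB4 was not called (log2 ratio -0.21, implied error 0.21, Cuffdiff q = 0.175). Of the tissue markers, LSI1 was called lower at 12 days (10.7 against 2.31 FPKM, log2 ratio -2.22, implied error 0.71). OSH1 and OSH15 were not tested and were listed at 0 at 5 days and at 3.18 and 2.39 FPKM at 12 days, and RBCS was not called (log2 ratio 0.24, implied error 0.31). Their part in the LHCB values was not tested.

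Thus 7 of 8 members were called lower and none higher, where Cuffdiff called 13.5% of 17250 tested loci lower and 14.8% higher. The median log2 ratio of the members was -1.41, beside -0.01 over all tested loci. The call for LHCB6 was lost when the implied error was used as the standard error of the ratio (q = 0.144 from a normal test with Benjamini-Hochberg adjustment), which called 6 members and 3.05% of all loci lower. With a minimum change of 2-fold 5 members were called, where 1.84% of all loci were called lower. The lowest and highest ratios of the family, those of Os09g0346500 and LHCB4, differed by -2.38 with a combined error of 0.30.

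The comparison of each knockout line with WT-12d asks what differed among plants of the same age. All 8 members fell in both lines, with log2 ratios from -0.85 to -3.68 in KO-a and from -0.87 to -5.96 in KO-b. Os01g0720500 fell most, 12.9-fold in KO-a (log2 ratio -3.68, implied error 0.21) and 62.1-fold in KO-b (-5.96, error 0.31). In KO-b its ratio was the 10th lowest of 18307 tested loci with a finite ratio, and in KO-a the 83rd lowest of 18247. Os09g0346500 fell least, 1.81-fold and 1.83-fold (log2 ratios -0.85 and -0.87, implied errors 0.25 and 0.24).

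LHCB4 and LHCB6, which had differed least between the wild types, were among the members that fell most here. LHCB5, the next least different there (log2 ratio -0.92), was among those that fell least (-1.66 in KO-a and -1.85 in KO-b). LHCB4 fell 7.45-fold in KO-a and 10.1-fold in KO-b (log2 ratios -2.90 and -3.34, implied error 0.21 each). LHCB6 fell 5.81-fold and 8.01-fold (log2 ratios -2.54 and -3.00, implied error 0.21 each). CAB2R, already lower in WT-12d than in WT-5d, fell a further 6.35-fold and 9.12-fold (log2 ratios -2.67 and -3.19, implied errors 0.23 and 0.24). LHCB2, LHCB3 and LHCB5 fell between 3.17-fold and 3.79-fold in KO-a and between 3.61-fold and 5.10-fold in KO-b. The ratios between the wild types and those of the knockouts share the 12-day samples, so the orders of the members in them are not independent.

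Of all tested loci, Cuffdiff called 23.5% lower and 21.3% higher in KO-a, and 24.2% lower and 22.2% higher in KO-b. The member medians were -2.23 in KO-a and -2.68 in KO-b on the log2 scale, beside 0.00 over all tested loci in each. Each member had the smallest q the table gives (0.000253). The implied-error test also called all 8 in both lines, where it called 12.5% of loci lower in KO-a and 13.0% in KO-b. A 2-fold minimum left 7 in each line, where 11.0% and 11.6% of loci were called lower. Scaling the groups to equal summed FPKM over loci of at least 200 bases shifted every ratio towards 0, by 0.54 in KO-a and 0.59 in KO-b, and left all 8 members below 0. CAB1R then stood at -0.32 in KO-a and -0.28 in KO-b on the log2 scale, within 2 implied errors of 0. Centred on the median ratio it stood at -0.85 and -0.87, and with upper quartile scaling at -0.80 and -0.79. The size of its fall thus depended on which scaling was used. LSI1 was called higher in both lines than in WT-12d (6.56 and 6.99 against 2.31 FPKM), and RBCS lower (1507 and 1452 against 23720 FPKM). OSH1 and OSH15 were called higher in KO-a (log2 ratios 0.89 and 1.30, implied errors 0.62 and 0.69, Cuffdiff q = 0.0249 and 0.0214) and were not called in KO-b (0.65 and 0.96). The part of a changed tissue makeup in the LHCB values was not tested.

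**Figure D3:**
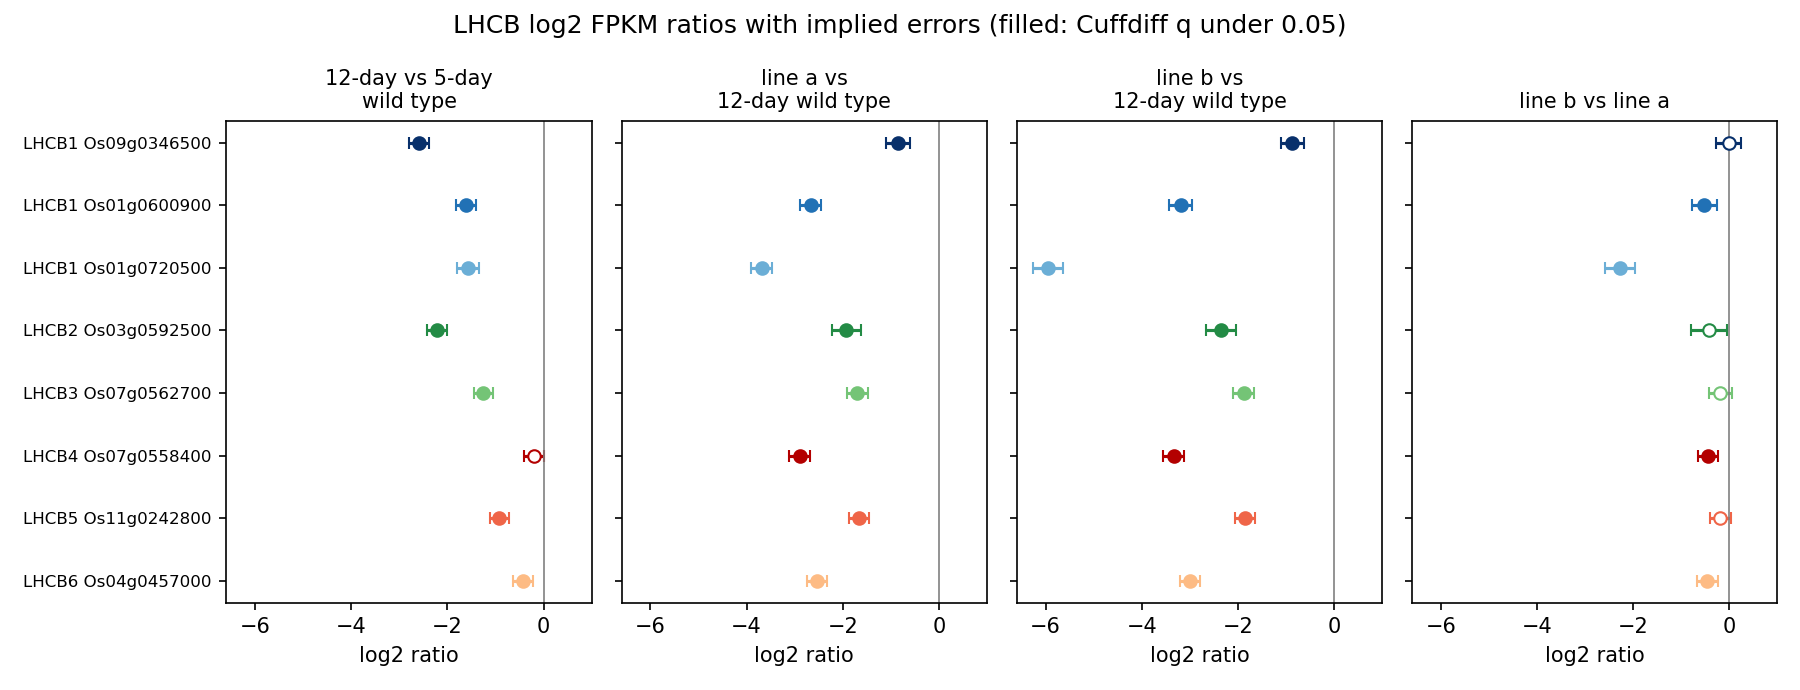
Log2 FPKM ratios of the 8 genes in 4 comparisons, with the implied error as bar and filled points where the Cuffdiff q was under 0.05. Ratios of the knockouts against WT-12d run from -0.85 for Os09g0346500 to -5.96 for Os01g0720500, and the order of the genes differs from that between the wild types.

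**Figure D4:**
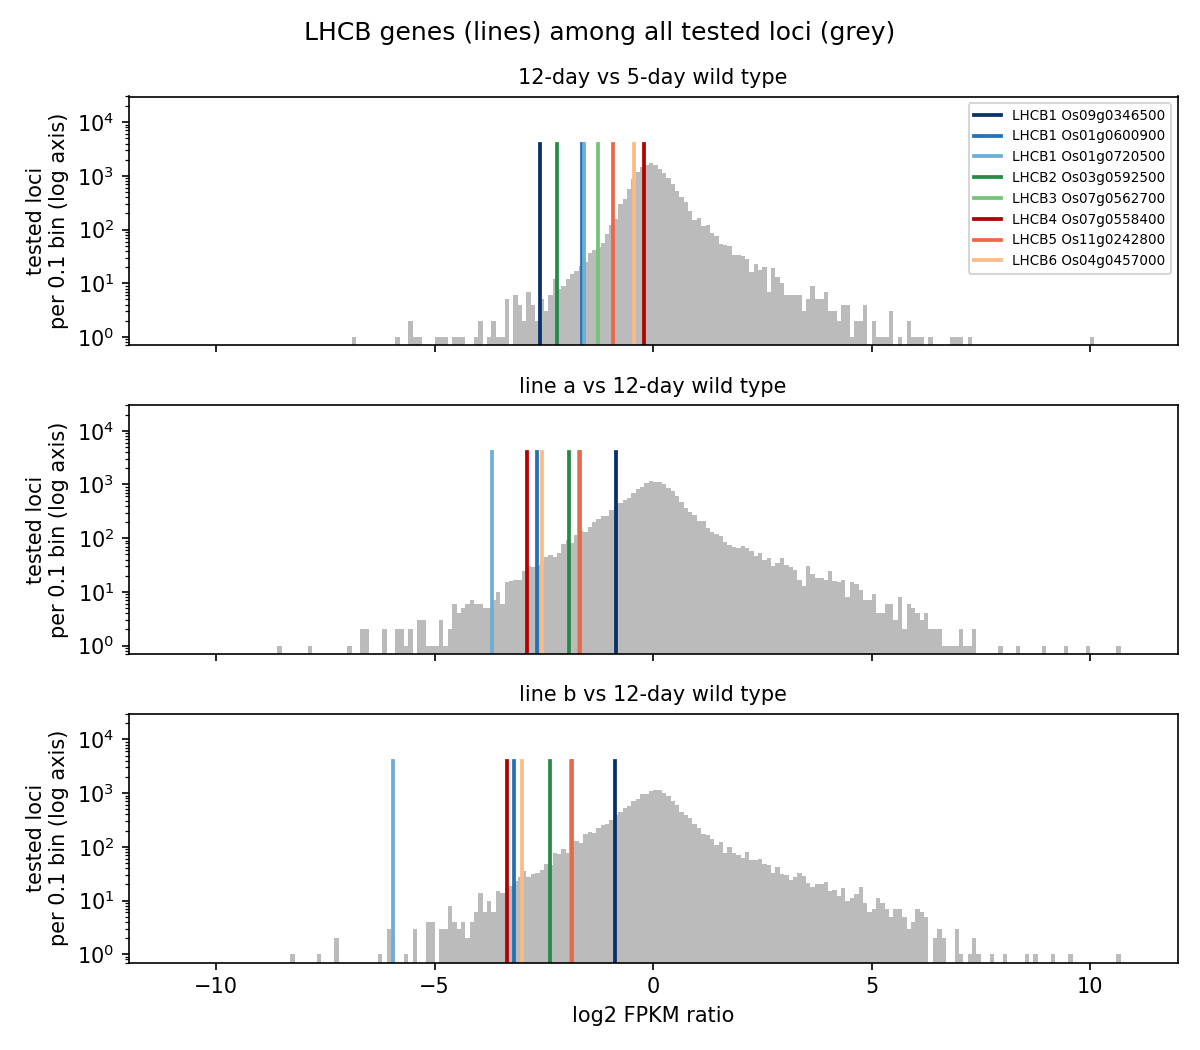
Distribution of log2 FPKM ratios over all tested loci with a finite ratio (grey, loci per bin on a log axis) in 3 comparisons, with 1 coloured line per LHCB gene. Against WT-12d all lines lie left of 0, and Os01g0720500 lies farthest out at -3.68 in KO-a and -5.96 in KO-b.

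Against WT-5d, which was younger and had not been moved to the solution, all 8 members were again lower in both lines. Genotype and age cannot be told apart in these comparisons. The log2 ratios ran from -2.59 for LHCB5 to -5.26 for Os01g0720500 in KO-a, and from -2.78 to -7.53 for the same genes in KO-b. The ratio of Os01g0720500 in KO-b was a 185-fold fall (implied error 0.32) and the 3rd lowest of 18215 tested loci with a finite ratio. Cuffdiff called 26.2% of tested loci lower and 24.7% higher in KO-a, and 26.6% lower and 25.6% higher in KO-b. All 8 members were called there too with the implied error (14.6% and 15.2% of loci lower) and with a 2-fold minimum (12.6% and 13.4%). The member medians were -3.27 and -3.50, beside 0.00 over all tested loci in each line. These comparisons share their knockout samples with those against WT-12d, and the members' values stand side by side without a test of likeness.

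The members differed in how much of the distance between WT-5d and the knockouts lay between the wild types. On the log2 scale this share was 75.2% (KO-a) and 74.8% (KO-b) for CAB1R, and 53.5% and 48.5% for LHCB2. It was 6.63% and 5.80% for LHCB4, and 14.4% and 12.5% for LHCB6. Os01g0720500 lay between these, at 29.9% and 20.9%, as did LHCB5, a minor antenna gene, at 35.7% and 33.2%. CAB2R (37.8% and 33.7%) and LHCB3 (42.5% and 40.0%) stood slightly higher than LHCB5.

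The LHCB1 genes are close relatives, and reads that fit more than 1 of them could have been divided between them in a way not given in the sources used here, so the split among the 3 is less certain than their sum. The 3 summed to 3830 FPKM in WT-5d, 1223 in WT-12d, 142 in KO-a and 73.4 in KO-b. The summed LHCB1 level was 3.13 times lower in WT-12d than in WT-5d. It was 8.61 times lower in KO-a and 16.7 times lower in KO-b than in WT-12d. The minor antenna sum was 1.34 times lower between the wild types, and 5.65 and 7.27 times lower in the lines.

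The lines were compared with each other directly by the deposited test. Os01g0720500 was 4.83-fold lower in KO-b than in KO-a (log2 ratio -2.27, implied error 0.31, Cuffdiff q = 0.000253). CAB2R, LHCB4 and LHCB6 were also called lower in KO-b, by 1.36-fold to 1.44-fold (log2 ratios -0.52, -0.44 and -0.46, implied errors 0.26, 0.21 and 0.22). LHCB2, LHCB3, LHCB5 and CAB1R were not called, with log2 ratios of -0.43, -0.19, -0.19 and -0.02, and the last turned to 0.04 with equal summed FPKM.

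Cuffdiff called 2.52% of 17876 tested loci lower and 2.47% higher in KO-b, beside 4 of 8 members lower and none higher. The median log2 ratio of the members was -0.44 and that of all tested loci -0.01. With the implied error as standard error only Os01g0720500 passed among the members (q = 2.36e-11 from the normal test), where 0.302% of all loci were called lower, and the q of CAB2R, LHCB4 and LHCB6 ran from 0.142 to 0.165. With a minimum change of 2-fold Os01g0720500 was again the member called, where 0.319% of all loci were called lower. Adjusting p within this comparison alone left 3 members called, where 0.643% of all loci were called lower.

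Of other genes of the antenna and its surroundings, those whose names RefSeq bears out at the matching place were read beside the LHCB family. PSBW (Os01g0773700) and PSB28 (Os01g0938100), for small proteins of photosystem II and its assembly, were the only 2 of 10 listed photosystem II genes so borne out. Both were called lower in both lines against WT-12d, where 23.5% (KO-a) and 24.2% (KO-b) of all tested loci were called lower. Their median log2 ratios were -2.77 in KO-a and -3.06 in KO-b. Between the wild types both were higher at 12 days (log2 ratios 0.51 and 0.43), the opposite of the LHCB genes that were called. That contrast covers these 2 genes alone and is not a statement about photosystem II genes as a whole. PSAH (Os05g0560000), a photosystem I subunit at the docking site of LHCII, was also called lower in both lines (log2 ratios -2.54 and -2.88) and was not called between the wild types (0.27).

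Chlorophyll b, which LHCB proteins need for folding, is made by chlorophyllide a oxygenase and reduced by NYC1 and NOL. The merged locus of CAO (Os10g0567400), which holds 2 annotated genes, was listed at 123 FPKM in WT-5d, 144 in WT-12d, 51.2 in KO-a and 48.2 in KO-b. It fell in both lines against WT-12d (log2 ratios -1.49 and -1.58, implied errors 0.25 and 0.24). NOL (Os03g0654600) fell by less (log2 ratios -0.60 and -0.66, implied error 0.25 each), and NYC1 (Os01g0227100) was not called (-0.16 and -0.10, Cuffdiff q = 0.354 and 0.588). None of these was called between the wild types. ZEP1 (Os04g0448900), a zeaxanthin epoxidase gene in a merged locus, was called lower at 12 days in wild type (log2 ratio -0.70) and in neither line against WT-12d (0.33 and 0.28).

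GLK1 and GLK2 are transcription factors that activate antenna and chlorophyll synthesis genes in plants. GLK1 (Os06g0348800) was listed at 118 FPKM in WT-5d, 103 in WT-12d, 51.9 in KO-a and 44.4 in KO-b, and fell in both lines against WT-12d (log2 ratios -0.99 and -1.22, implied error 0.21 each). GLK2 (Os01g0239000) also fell in both (-0.62 and -0.78, implied errors 0.21 and 0.22), after a rise between the wild types (0.68, error 0.21). Against WT-5d GLK1 was called lower in both lines (log2 ratios -1.19 and -1.41), as every LHCB gene was. GLK2 was not called against WT-5d in either line (0.05 and -0.10).

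The loci with the most similar pattern were sought among 2024 other single-gene loci that reached 100 FPKM in a group, by the Euclidean distance of 3 log2 ratios to WT-12d from the member medians, with 1 added to each FPKM. The nearest, Os04g0678700, had a distance of 0.46 and stood at 581, 222, 58.9 and 44.5 FPKM in WT-5d, WT-12d, KO-a and KO-b. The fifth lay at 0.90, and the members themselves at 0.70 to 3.54. Os01g0720500 had the most isolated pattern, with its nearest locus at 2.04 and RBCS second at 2.60. For CAB1R the nearest locus lay at 1.12, whereas for LHCB5 it lay at 0.17.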

How the data were processed

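The submitters' processing notes name FastQC, Trimmomatic, HISAT2, Cuffdiff and Cufflinks as tools and IRGSP-1.0 as genome build. Versions, options, library strand and annotation release are not given in the sources used here. The authors' deposited table gives FPKM, 1 value per group of 3 replicates, for 37672 merged loci. The deposited log2 ratios, the deposited score (the Cuffdiff test statistic) and the p-value and q-value as deposited cover 6 pairs of groups. Benjamini-Hochberg adjustment over all 108602 tests gave the deposited q to within 5.27e-07, and the smallest p was 5e-05. Depth and values per replicate were not analysed here, so precision is known only through the implied errors.

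Python 3.11.15, pandas 2.3.3, numpy 2.4.6, scipy 1.17.1 and matplotlib 3.10.9 were used. Locus starts, counted from 0 in the table, were raised by 1. Ranks and sums used loci of at least 200 bases. The computation of the implied-error test was checked on simulated data with known errors, which does not show that the implied error is the standard error of these ratios. Genes named were the 8 members, OsC3'H1, genes from written lists of antenna, photosystem, chlorophyll b, xanthophyll, GLK and tissue marker loci, and loci of most similar pattern (the 5 nearest to the member medians, and the 3 nearest to each member over 1 from them), of which the text prints part. Of 45 genes written, 15 matched a RefSeq symbol (assembly ASM3414082v1) on the same chromosome within 0.1 of its relative length, and the others, including every photosystem I antenna gene, are not described, apart from OsC3'H1. Promoter motifs and protein identity were planned but not described, since no sequences were used here. The members and lists were chosen with earlier results of these data known.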

Additional observations from a re-analysis of the deposited data

Results flagged for a closer look

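By the deposited test of KO-b against KO-a, the levels in the knockout lines differed at 4 of 8 LHCB genes. Of all tested loci, 2.52% were called lower in KO-b. The log2 ratio of KO-b to KO-a was -2.27 for Os01g0720500, -0.52 for Os01g0600900, -0.46 for Os04g0457000 and -0.44 for Os07g0558400. With the implied error as standard error, or with a 2-fold minimum, the call held for Os01g0720500 and was lost for the other three. The level of Os01g0720500 was 69.8 FPKM in KO-a and 14.5 FPKM in KO-b. Samples that stand apart within a group were not sought, since the table holds 1 value per group.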

How the results depend on the processing

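Calls for all 8 members in both lines, against either wild type, were the same with the implied-error test and with adjustment within each comparison. They were also the same with loci at or above 1 FPKM and with loci that hold 1 gene. Every member passes both of these filters, so the filters could not drop a member and are no check of these calls. Adjustment within each comparison and the filters called 23.8% to 27.7% of all loci lower in these comparisons. A 2-fold minimum left 7 of 8 in each line against WT-12d (11.0% and 11.6% of loci) and 8 of 8 against WT-5d (12.6% and 13.4%). Between the wild types the count was 7 (13.5% of loci called lower), and 6 with the implied-error test (3.05% of loci) or 5 with a 2-fold minimum (1.84%). Between the lines the count was 4 (2.52% of loci called lower), and 3 with adjustment within each comparison (0.643%). There it was 1 with the implied-error test (0.302%) or with a 2-fold minimum (0.319%), and the cause was not tested. The major antenna share without Os01g0720500 was 44.6% in WT-5d, 24.3% in WT-12d, 31.7% in KO-a and 33.1% in KO-b. Of 48 log2 ratios, 14 moved by more than the implied error with a pseudocount of 10 and 32 with equal summed FPKM, none with the other scalings or a pseudocount of 1, and no called ratio changed sign. No paired analysis was possible because the table holds no values per replicate, and leaving out each replicate in turn was not run for the same reason. Depth, and so the precision of low values, is unknown.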
